A study of Mus musculus with 8 samples.

Results

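Transcripts of 10 genes of the urea cycle and of ammonia metabolism were followed across 8 mouse liver RNA-seq libraries. The genes were taken by symbol from the deposited gene table, namely Nags, Cps1, Otc, Ass1, Asl and Arg1 of the cycle and Gls2, Prodh, Got1 and Gpt, which release or pass on amino acid nitrogen. All 10 were found among the 47719 genes listed, and all 10 were among the 12340 genes tested. Their lowest value in any library was 8.98 FPKM, a unit of sequenced fragments scaled by transcript length and library size, so none depended on the minimum of 1 FPKM in 2 libraries for being tested.

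All animals were wild-type C57BL/6 mice, and liver RNA was extracted with Trizol and prepared with an Illumina TruSeq kit. The groups were 2 libraries at day 14 after extended hepatectomy, 4 libraries at day 2 after it, and 2 libraries of normal control mice that were 10 weeks old. Extended hepatectomy takes out most of the liver in 1 operation. The series concerns encapsulated human hepatocyte organoids for liver failure, and its design text names eLO treatment at day 14, EMC or eLO treatment at day 2 and neither for the normal controls, but no label places a day 2 library in a treatment. The effects of surgery, time and treatment therefore cannot be told apart, and EMC and eLO were not compared. The labels give no age for the operated mice. Replicate numbers at day 14 and day 2 follow accession order, not the numbers in the titles, and serve only as names. The title of day 2 replicate 1 reads d1 although its age label puts it at day 2, and TVR, a term the labels leave unexplained, stands in the title of day 2 replicate 3. The column header of day 2 replicate 3, and no other, also holds PHX beside a number, which is not explained either. Nothing in the labels says that each library is a separate mouse, and every p-value therefore rests on library-to-library spread, which may be technical.

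The urea cycle turns toxic ammonia into urea and runs almost entirely in hepatocytes, above all in those near the portal vein. In the mitochondrion Nags makes N-acetylglutamate, which Cps1 needs in order to join ammonia and bicarbonate, and Otc passes the carbamoyl group to ornithine. In the cytosol Ass1 and Asl add the second nitrogen from aspartate and release arginine, and Arg1 splits arginine into urea and ornithine. Gls2 frees ammonia from glutamine, Prodh starts the breakdown of proline to glutamate, Got1 exchanges amino groups between glutamate and aspartate, and Gpt moves the amino group of alanine to make glutamate.

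Promoter windows were taken from RefSeq on GRCm38.p6, with 250 bases before and 50 bases after the gene start that RefSeq gives. Windows were on hand for 5 of the 10 genes. Those of Otc and Prodh, the genes with the largest differences between day 14 and day 2, and of Nags, whose product switches the cycle on, are printed 5′ to 3′ on the strand of the gene. The Otc window is chrX:10252055-10252354 on the plus strand, the Prodh window chr16:18089141-18089440 on the minus strand and the Nags window chr11:102145263-102145562 on the plus strand. The Prodh window lies wholly inside the gene span given below, chr16:18060357-18090203, whose start differs from that of RefSeq. The letters printed for Prodh are therefore not those around the start of that span. The starts also differ for Ass1, whose window was searched but is not printed. Capitals mark a match to a searched motif.
Otc: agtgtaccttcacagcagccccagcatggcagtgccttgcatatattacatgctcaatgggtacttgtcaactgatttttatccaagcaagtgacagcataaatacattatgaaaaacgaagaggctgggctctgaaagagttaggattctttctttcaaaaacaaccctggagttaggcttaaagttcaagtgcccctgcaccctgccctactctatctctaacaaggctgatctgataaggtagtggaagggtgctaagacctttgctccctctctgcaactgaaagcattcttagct
Prodh: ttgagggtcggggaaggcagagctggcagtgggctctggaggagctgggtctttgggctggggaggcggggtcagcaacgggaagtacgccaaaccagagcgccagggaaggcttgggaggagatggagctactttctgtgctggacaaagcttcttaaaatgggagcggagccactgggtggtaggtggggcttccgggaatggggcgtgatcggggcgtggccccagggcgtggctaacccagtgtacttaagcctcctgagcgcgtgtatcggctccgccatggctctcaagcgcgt
Nags: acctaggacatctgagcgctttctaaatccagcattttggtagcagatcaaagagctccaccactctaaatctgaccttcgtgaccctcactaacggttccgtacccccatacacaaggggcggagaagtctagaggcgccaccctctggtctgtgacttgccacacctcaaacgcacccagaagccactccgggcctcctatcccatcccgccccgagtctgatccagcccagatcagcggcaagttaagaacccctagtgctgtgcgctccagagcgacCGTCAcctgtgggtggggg

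Both strands of the 5 windows (Otc, Prodh, Nags, Ass1 and Got1) were searched for motifs of factors known to act on liver metabolic genes. For C/EBP the letters were TTGCNNAA, held by 10.8% of the 32851 promoters of the same length in the table. For HNF4 they were CAAAGTNCA, held by 1.41%. The core of the cAMP response element was searched as TGACG, which 20.8% of the promoters held, and the TATA box as TATAAA, which 13.6% held. For the glucocorticoid receptor the letters TGTTCT were used, which 19.0% held. One match was found, a TGACG on the other strand of Nags, from 32 to 36 bases after the start, and no other motif overlapped it. A match is a description of letters and not evidence of binding, and the absence of one says only that these letters are not in the window.

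Across the 8 libraries total FPKM ran between 686332 and 1298005, and 10796 to 11197 genes reached 1 FPKM; read depth is unknown. Levels differed between the operated and the control libraries with transcript length. The median difference from control in the shortest eighth of 11318 genes exceeded that in the longest eighth by 0.52 and 0.89 log2 units in the day 14 libraries and by 0.89 to 0.96 in the day 2 libraries, against 0.04 and -0.04 in the normal controls. Summed hepatocyte markers (9 of the 10 listed were in the table) stood at 79825 and 80615 FPKM at day 14, at 45904 to 82409 FPKM at day 2 and at 59546 and 61890 FPKM in normal control, and limma called 0 of 9 in any comparison (at an unadjusted p under 0.05 there were 3 at day 14 and 1 at day 2, each against normal control, and 4 at day 14 against day 2). The day 2 libraries differed most in cycling-cell markers, whose 6 genes summed to 2.88, 2.05, 474 and 673 FPKM in replicates 1 to 4, against 9.06 and 11.3 FPKM at day 14 and 7.63 and 9.47 FPKM in normal control.

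**Figure D1:**
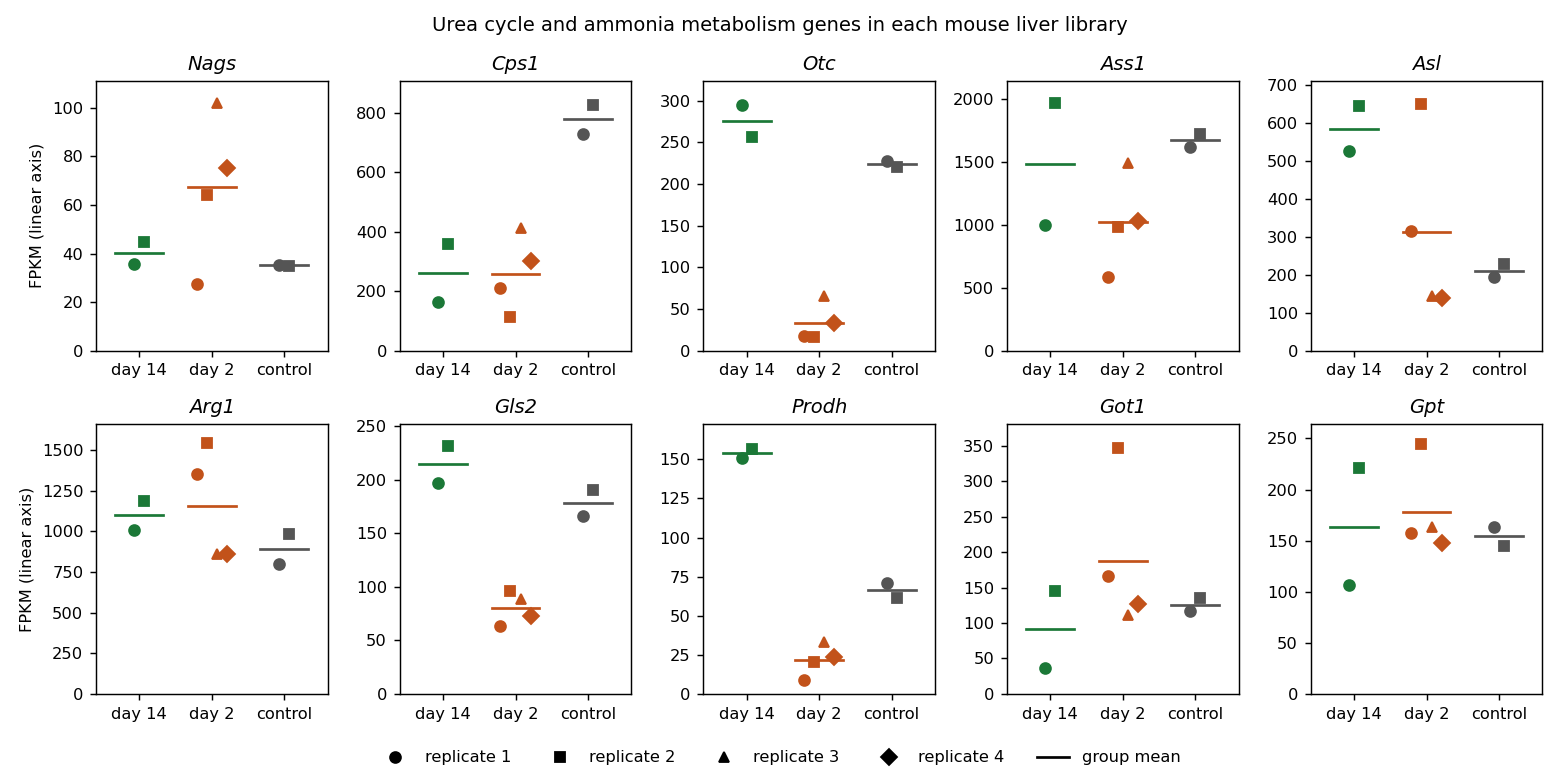
FPKM (vertical axes, linear, starting at 0) of the 10 genes in each library, with 1 point per library, a symbol per replicate number and a line at the mean of each group. Otc, Gls2 and Prodh are lower in all 4 day 2 libraries than in every library at day 14 and in normal control, while Cps1 is lower in all 6 operated libraries than in both normal controls.

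At day 2, transcripts of 4 of the 10 genes fell relative to normal control and none rose. The 4 were Cps1 and Otc, the mitochondrial steps of the cycle, and Gls2 and Prodh, which feed it with ammonia and glutamate. The mean of Otc was 6.76-fold lower, that of Prodh 3.08-fold lower, that of Cps1 3.00-fold lower and that of Gls2 2.23-fold lower. The cytosolic enzymes Ass1, Asl and Arg1, the activator enzyme Nags and the transaminases Got1 and Gpt did not pass the test. The call of Cps1 was at the edge (limma adjusted p = 0.0499) and was kept in 3 of 12 alternative analyses. Ass1 was also below both controls in all 4 day 2 libraries. The calls therefore do not part the mitochondrial from the cytosolic steps. Changes were tested with limma on log2(FPKM + 1), a scale that understates differences of low genes, and a gene was called where the p adjusted over all genes tested (Benjamini-Hochberg) was under 0.05. In this comparison 11.5% of all genes tested were called lower and 9.72% higher. The median log2 change was -0.30 over the 10 genes and 0.05 over all genes tested.

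Nags lies at chr11:102145513-102149477 on GRCm38 and was the lowest of the 10 in normal control. It stood at 27.6, 63.9, 102 and 75.2 FPKM in day 2 replicates 1 to 4, against 35.4 and 34.8 FPKM in normal control. Of the 4 day 2 libraries 3 were above both controls and replicate 1 was below them, so the groups overlapped. The log2 change was 0.78 ± 0.46 (SE; limma adjusted p = 0.249), and without day 2 replicate 1, the library whose title reads d1, it was 1.15 with adjusted p = 0.037. Of 12 alternative analyses only this 1 called Nags. With the dependence on transcript length and GC content removed, the log2 change was 0.35 (limma adjusted p = 0.633). Gm11586, an antisense gene that overlaps Nags, was listed at 1.27 to 12.6 FPKM over the libraries, and the labels do not say whether counting used strand.

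Cps1, at chr1:67123026-67231259, encodes the first and rate-controlling enzyme of the cycle. It stood at 210.4, 113, 413 and 301 FPKM in day 2 replicates 1 to 4, against 726 and 827 FPKM in normal control. Every day 2 library was below both controls, with replicate 2 the lowest. The group means were 259 ± 128 FPKM at day 2 (SD, n = 4) and 777 ± 71.1 FPKM in normal control (SD, n = 2), and the log2 change was -1.73 ± 0.53 (SE; limma adjusted p = 0.0499). This call was at the edge of the threshold. It was kept in 3 of 12 alternative analyses, with adjusted p between 0.0251 and 0.259 and log2 changes between -2.0 and -1.38. Once the dependence on transcript length and GC content had been taken out of each library, the log2 change was -1.44 (adjusted p = 0.0931). Leaving out 1 library ended the call for day 14 replicate 1 (adjusted p = 0.0538), day 14 replicate 2 (0.0537), day 2 replicates 1 (0.0953), 2 (0.0509) and 4 (0.062) and normal control replicates 1 (0.218) and 2 (0.259). With no filter on low values the adjusted p was 0.102.

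Otc, the X-linked second enzyme at chrX:10252305-10321024, showed the largest difference of the 10. Its values were 17.7, 16.1, 66.1 and 32.7 FPKM in day 2 replicates 1 to 4, against 227 and 221 FPKM in normal control. The highest day 2 library, replicate 3, was still far under both controls. The means were 33.1 ± 23.2 FPKM (SD, n = 4) at day 2 and 224 ± 4.78 FPKM (SD, n = 2) in normal control, and the log2 change was -2.95 ± 0.51 (SE; limma adjusted p = 0.00912). With 1 control library left, and its spread assumed to be that of the other groups, the log2 change was -2.93 without normal control replicate 1 (adjusted p = 0.0955) and -2.97 without normal control replicate 2 (adjusted p = 0.0972). Across the other 10 alternatives the call was kept.

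None of the 3 cytosolic enzymes passed the test. Ass1 (chr2:31470207-31520672) stood at 589, 987, 1495 and 1030.4 FPKM in day 2 replicates 1 to 4, against 1624 and 1722 FPKM in normal control. All 4 day 2 libraries were under both controls, but replicate 3 was close to them. The log2 change of -0.78 ± 0.42 (SE) did not pass (limma adjusted p = 0.211; -1.2 and adjusted p = 0.0775 with the length and GC trend removed).

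Asl (chr5:130011258-130029247) was at 314, 651, 144 and 138 FPKM in day 2 replicates 1 to 4, against 193 and 228 FPKM in normal control. Replicates 1 and 2 were above both controls and replicates 3 and 4 below them. The log2 change was 0.27 ± 0.59 (SE; limma adjusted p = 0.767), it was -0.19 without day 2 replicate 2 and -0.09 with the length and GC trend removed, and no direction can be given. Arg1 (chr10:24915221-24927484) was at 1351, 1544, 861 and 863 FPKM in day 2 replicates 1 to 4, against 799 and 986 FPKM in normal control. Here too replicates 1 and 2 were above the controls, while replicates 3 and 4 lay between them, and the log2 change was 0.33 ± 0.33 (SE; limma adjusted p = 0.484). Macrophages can also make Arg1. The 10 monocyte and recruited macrophage markers summed to 260, 298, 84.7 and 146 FPKM in day 2 replicates 1 to 4, against 120 and 122 FPKM in normal control, and the 8 neutrophil markers to 141, 323, 87.7 and 32.1 FPKM, against 4.23 and 7.84 FPKM. Of these, 1 of 8 tested monocyte markers was called higher and 2 lower, 3 of 4 tested neutrophil markers were called higher, and no marker of either list was at 0 in all libraries. Their part in the Arg1 level was not tested.

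Gls2, the liver form of glutaminase at chr10:128194457-128210004, was at 63.3, 96.3, 88.5 and 72.9 FPKM in day 2 replicates 1 to 4, against 167 and 191 FPKM in normal control. The 4 day 2 values lay close together and all were well under the controls. The means were 80.2 ± 14.9 FPKM (SD, n = 4) at day 2 and 179 ± 16.9 FPKM (SD, n = 2) in normal control, with a log2 change of -1.16 ± 0.25 (SE; limma adjusted p = 0.0162). The call was lost without normal control replicate 1 (-1.26, adjusted p = 0.129) and without normal control replicate 2 (-1.06, adjusted p = 0.175), and was kept in the other 10 alternatives. Spryd4, on the opposite strand and overlapping Gls2, was listed at 9.99 to 25.8 FPKM over the libraries.

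Prodh, proline dehydrogenase at chr16:18060357-18090203, was at 8.98, 20.6, 33.2 and 23.3 FPKM in day 2 replicates 1 to 4, against 71.0 and 61.7 FPKM in normal control. No day 2 library came near the controls, and replicate 1 was the lowest. The means were 21.5 ± 9.96 FPKM (SD, n = 4) at day 2 and 66.3 ± 6.63 FPKM (SD, n = 2) in normal control, and the log2 change was -1.71 ± 0.43 (SE; limma adjusted p = 0.0294). It was -1.61 without normal control replicate 1 (adjusted p = 0.197), -1.81 without normal control replicate 2 (adjusted p = 0.166) and -1.71 with no filter on low values (adjusted p = 0.0608), where the call was lost. Dgcr6, which overlaps Prodh on the opposite strand, was listed at 27.8 to 87.3 FPKM, so the Prodh level is uncertain if reads were counted without regard to strand.

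Neither of the 2 transaminases passed the test. Got1 (chr19:43499752-43524605) was at 167, 347, 112 and 127 FPKM in day 2 replicates 1 to 4, against 117 and 135 FPKM in normal control, with a log2 change of 0.43 ± 0.60 (SE; limma adjusted p = 0.625). Gpt (chr15:76695716-76699686) was at 157, 244, 163 and 147 FPKM in day 2 replicates 1 to 4, against 164 and 145 FPKM in normal control, with a log2 change of 0.18 ± 0.34 (SE; limma adjusted p = 0.724; -0.22 with the length and GC trend removed). In both genes day 2 replicate 2 was the highest of the 4 and the other libraries were near or within the range of the controls, apart from Got1 in replicate 1.

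At day 14 none of the 10 genes was called relative to normal control, in a comparison where 5.21% of all genes tested were called higher and 4.58% lower. By limma 2 of the 10, Cps1 and Prodh, had an unadjusted p under 0.05 (0.0241 and 0.0424). Cps1 stood at 164 and 359 FPKM at day 14, against 726 and 827 FPKM in normal control. Both day 14 libraries were within the range of day 2, and the log2 change was -1.67 ± 0.61 (SE; limma adjusted p = 0.108). It was called without day 2 replicate 2 (-1.67, adjusted p = 0.047), a library that enters this comparison only through the shared estimate of the spread.

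Prodh at day 14 was at 151 and 157 FPKM, against 71.0 and 61.7 FPKM in normal control, so both libraries were above both controls. The log2 change was 1.2 ± 0.50 (SE) and did not pass (limma adjusted p = 0.153). Asl likewise lay above the controls, at 525 and 645 FPKM at day 14, against 193 and 228 FPKM in normal control (log2 change 1.47 ± 0.69, limma adjusted p = 0.194).

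Otc was at 294 and 256 FPKM at day 14, against 227 and 221 FPKM in normal control, a log2 change of 0.29 with a 95% interval of -1.07 to 1.65. Gls2 was at 197 and 232 FPKM at day 14, against 167 and 191 FPKM in normal control (log2 change 0.26, 95% interval -0.39 to 0.91). Both genes were slightly above the controls in each day 14 library, and the intervals leave room for differences in either direction. Arg1, at 1010.3 and 1186 FPKM against 799 and 986 FPKM in normal control, had a log2 change of 0.30 (95% interval -0.56 to 1.17), and Nags, at 35.5 and 44.9 FPKM against 35.4 and 34.8 FPKM, one of 0.18 (95% interval -1.03 to 1.39; -0.15 with the length and GC trend removed).

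The 2 day 14 libraries differed from each other most in 4 genes. Ass1 was at 999 and 1973 FPKM, Got1 at 37.0 and 146 FPKM, Gpt at 106 and 221 FPKM and Cps1 at 164 and 359 FPKM in replicates 1 and 2. Replicate 1 was the lower in each, by 1.98-fold for Ass1 up to 3.94-fold for Got1, while the 2 controls of any of the 10 genes were at most 1.23-fold apart. Without day 14 replicate 1 the log2 change against normal control was 0.24 for Ass1, 0.21 for Got1 and 0.52 for Gpt, and with it -0.25, -0.77 and -0.00. None of these passed the test with or without it.

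**Figure D2:**
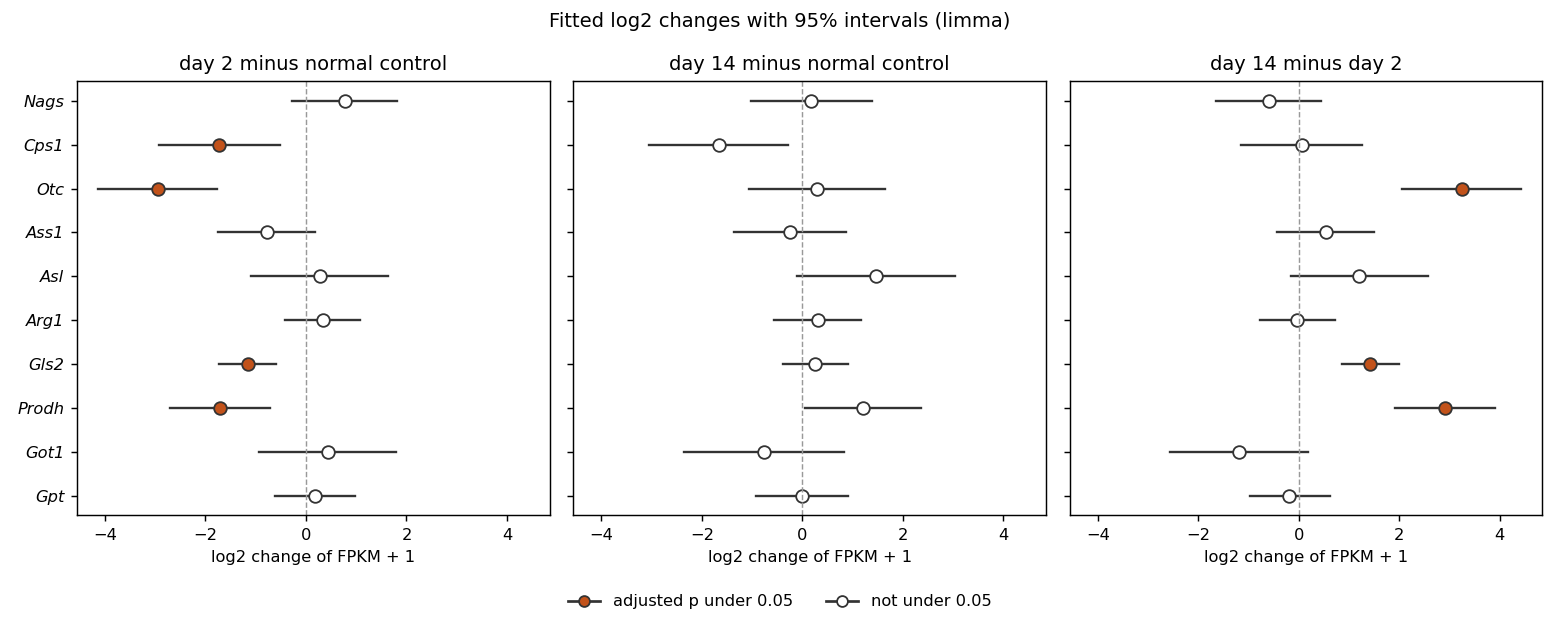
Fitted log2 change of FPKM + 1 (horizontal axis) with its 95% interval for each of the 10 genes in the 3 comparisons, filled where the limma adjusted p was under 0.05. Cps1, Otc, Gls2 and Prodh are filled on the left of 0 in day 2 minus normal control, none is filled in day 14 minus normal control, and Otc, Gls2 and Prodh are filled on the right in day 14 minus day 2.

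Between day 14 and day 2, Otc, Gls2 and Prodh were higher at day 14 and no gene of the 10 was lower, while 9.09% of all genes tested were called higher and 7.03% lower. The mean of Otc was 8.30-fold higher (275 ± 27.1 FPKM at day 14, n = 2, against 33.1 ± 23.2 FPKM at day 2, n = 4, SD), with a log2 change of 3.24 ± 0.51 (SE; limma adjusted p = 0.00868). Prodh was 7.15-fold higher (154 ± 4.35 against 21.5 ± 9.96 FPKM; log2 change 2.91 ± 0.43, limma adjusted p = 0.00746). Gls2 was 2.67-fold higher (214 ± 24.2 against 80.2 ± 14.9 FPKM; log2 change 1.42 ± 0.25, limma adjusted p = 0.0116). In each of these 3 genes both day 14 libraries were above all 4 day 2 libraries. All 3 calls were lost without day 14 replicate 1, at log2 changes of 3.14 for Otc (adjusted p = 0.101), 2.94 for Prodh (0.0872) and 1.54 for Gls2 (0.0834), and were kept in the other 11 alternatives.

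Cps1 did not share this difference. It averaged 261 ± 138 FPKM at day 14 (SD, n = 2) and 259 ± 128 FPKM at day 2 (SD, n = 4), a log2 change of 0.06 with a 95% interval of -1.15 to 1.26, which was -0.51 without day 14 replicate 2 and -0.29 without day 2 replicate 2. Asl, with 525 and 645 FPKM at day 14 beside 138 to 651 FPKM at day 2, had a log2 change of 1.2 ± 0.59 (SE; limma adjusted p = 0.194), and 1.65 with adjusted p = 0.0287 without day 2 replicate 2. Arg1 differed by -0.03 (95% interval -0.78 to 0.72), which was 0.03 with the length and GC trend removed, Ass1 by 0.53 (-0.44 to 1.49) and Nags by -0.59 (-1.64 to 0.45). Got1 differed by -1.19 (95% interval -2.56 to 0.18) and Gpt by -0.19 (-0.98 to 0.61). Because day 14 and day 2 are each set against the same 2 control libraries, the comparisons with normal control are not independent of each other. In whole liver, fewer cells of a type and less RNA per cell cannot be told apart for any of these genes.

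The order of the steps by level changed with the group. FPKM is scaled by length, so levels of different genes within a library can be set side by side. Between groups the order can also move with the trend over transcript length that set operated libraries apart from the controls. In normal control Ass1 (mean 1673 FPKM) was above Arg1 (892 FPKM) and Cps1 (777 FPKM), with Otc (224 FPKM), Asl (211 FPKM), Gls2 (179 FPKM), Gpt (154 FPKM), Got1 (126 FPKM), Prodh (66.3 FPKM) and Nags (35.1 FPKM) below. Only the ranges of Arg1 and Cps1 and of Otc and Asl overlapped between neighbours in that order. At day 14 the order was Ass1 (1486 FPKM), Arg1 (1098 FPKM), Asl (585 FPKM), Otc (275 FPKM), Cps1 (261 FPKM), Gls2 (214 FPKM), Gpt (164 FPKM), Prodh (154 FPKM), Got1 (91.4 FPKM) and Nags (40.2 FPKM). Neighbours were apart beyond their spread between Arg1 and Asl, Asl and Otc, and Prodh and Got1. At day 2 Arg1 (1155 FPKM) and Ass1 (1025 FPKM) led, followed by Asl (312 FPKM), Cps1 (259 FPKM), Got1 (188 FPKM), Gpt (178 FPKM), Gls2 (80.2 FPKM), Nags (67.2 FPKM), Otc (33.1 FPKM) and Prodh (21.5 FPKM). There only Gpt and Gls2 did not overlap between neighbours. Within the single libraries Ass1 was above Asl and Nags above Otc in 4 of 4 although their ranges overlapped, while Arg1 and Ass1, Asl and Cps1, Got1 and Gpt, and Gls2 and Nags were each in that order in 2 of 4.

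**Figure D3:**
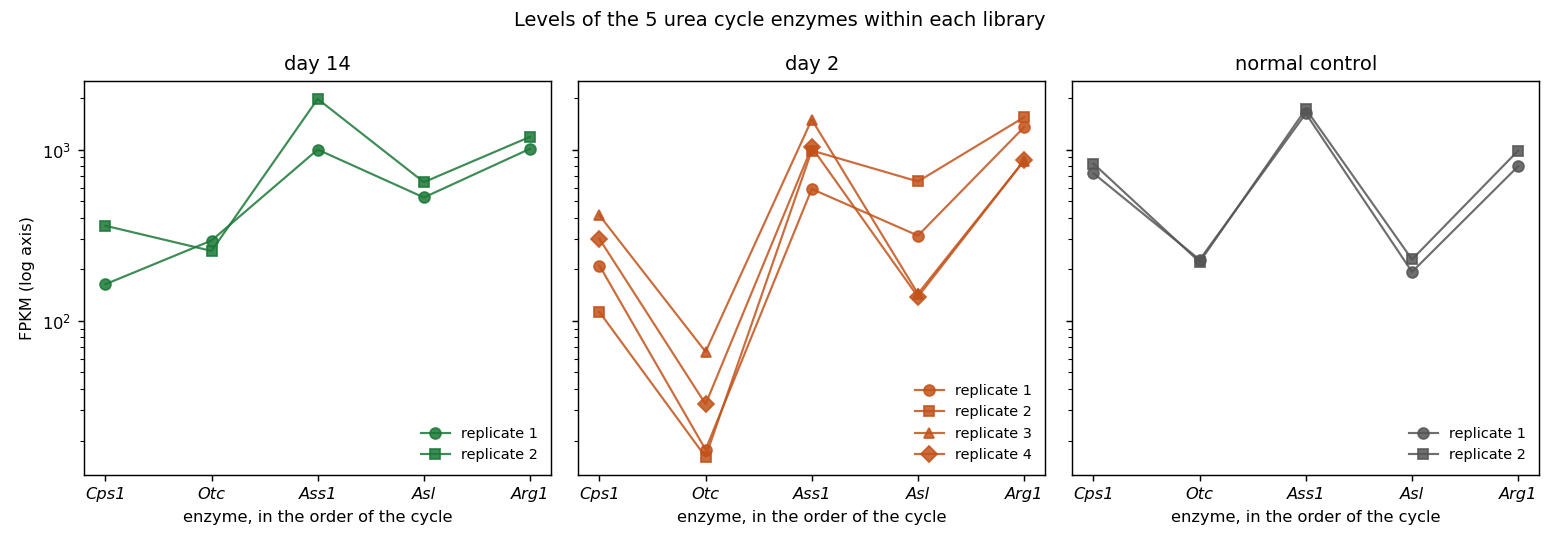
FPKM (vertical axis, log scale) of Cps1, Otc, Ass1, Asl and Arg1 in the order of the cycle, with 1 line per library and a panel each for day 14, day 2 and normal control. The lines of the normal controls nearly coincide, those of day 2 dip deepest at Otc, and those of day 14 have Asl above the controls and Cps1 below them.

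Ratios of 2 genes within a library do not depend on how that library was scaled, but they can move with its trend over transcript length. The ratio of Otc to Cps1 FPKM, neighbouring steps in the mitochondrion, was 1.80 and 0.713 at day 14, 0.0843, 0.143, 0.160 and 0.109 at day 2 and 0.313 and 0.267 in normal control. The 3 groups did not overlap, with day 14 above the controls and day 2 below them. The ratio of Nags to Cps1 was 0.217 and 0.125 at day 14, 0.131, 0.567, 0.247 and 0.25 at day 2 and 0.0488 and 0.0421 in normal control, so that every operated library was above both controls. Taking the length and GC trend out made this shift smaller: against normal control the log2 changes of Nags and Cps1 were then 0.35 and -1.44 at day 2 and -0.15 and -1.38 at day 14, where they had been 0.78 and -1.73 at day 2 and 0.18 and -1.67 at day 14.

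In the cytosol the ratio of Asl to Ass1 was 0.525 and 0.327 at day 14 and 0.119 and 0.133 in normal control. At day 2 it was 0.534 and 0.660 in replicates 1 and 2 but 0.0963 and 0.134 in replicates 3 and 4, so the day 2 libraries spanned both other groups. The ratio of Arg1 to Asl was 1.92 and 1.84 at day 14, below all 4 day 2 libraries (4.30, 2.37, 5.98 and 6.24) and both normal controls (4.14 and 4.32). The ratios are given as a description, with no test.

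Spread within day 2 was uneven between the genes. The highest of the 4 libraries exceeded the lowest by 4.71-fold for Asl, 4.11-fold for Otc, 3.70-fold for Prodh, 3.69-fold for Nags and 3.67-fold for Cps1, and by 1.52-fold for Gls2 and 1.66-fold for Gpt. Which library was highest also varied by gene. Replicate 3 was the highest of the 4 in Nags, Cps1, Otc, Ass1 and Prodh, and replicate 2 in Asl, Arg1, Gls2, Got1 and Gpt. The libraries also fell into pairs. Replicates 3 and 4 were both above replicates 1 and 2 in Nags, Cps1, Otc, Ass1 and Prodh. Both were below replicates 1 and 2 in Asl, Arg1 and Got1, while Gls2 and Gpt showed neither order. Of the marker sums given above, replicate 2 had the highest for neutrophils and monocytes. Replicate 3 had the highest for hepatocytes and the lowest for monocytes. The sums for cycling cells parted the same pairs, at 2.88 and 2.05 FPKM in replicates 1 and 2 and 474 and 673 FPKM in replicates 3 and 4. The part of these cell types in the spread was not tested. The 5 enzymes of the cycle together made up 0.231% and 0.421% of total FPKM at day 14, 0.325%, 0.292%, 0.364% and 0.345% at day 2 and 0.498% and 0.545% in normal control. This share also moves with total FPKM, which differed between libraries. Their summed FPKM was 2992 and 4420 at day 14, 2482, 3310, 2980 and 2366 at day 2 and 3570 and 3984 in normal control. By that sum day 14 replicate 1 was below both controls and replicate 2 above them, while every day 2 library was below both.

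The genes around the cycle were counted in 7 lists, to be read beside the shares of all genes called that are given above and the median log2 changes of all genes tested, which were 0.05 at day 2 and -0.00 at day 14 against normal control and -0.03 at day 14 against day 2. Of 7 listed mitochondrial carriers and carbonic anhydrases that bring substrates to the cycle, 6 were tested. At day 2 against normal control 1 was lower and none higher, with a list median log2 change of -0.27. Car5a, the mitochondrial carbonic anhydrase that supplies bicarbonate to Cps1, was at 1.16, 0.461, 19.1 and 7.78 FPKM in day 2 replicates 1 to 4, against 54.2 and 47.2 FPKM in normal control. All 4 were below the controls, with replicates 1 and 2 near the bottom of the measured range, and the log2 change was -3.41 ± 0.95 (SE; limma adjusted p = 0.0391). Its adjusted p ran between 0.00848 and 0.212 over 12 alternatives, of which 5 kept the call. Slc25a15, which brings ornithine into the mitochondrion, was the 1 gene of the list called at day 14 against normal control, with 32.3 and 62.3 FPKM against 114 and 142 FPKM (log2 change -1.48 ± 0.34, limma adjusted p = 0.0381; 0.063 with the length and GC trend removed). The aspartate carrier Slc25a12 was the 1 gene called at day 14 against day 2, and it was lower (log2 change -1.27 ± 0.25, limma adjusted p = 0.0159). Slc25a13, the aspartate carrier that is the more abundant of the pair in these libraries, was called in no comparison. These 3 carriers, unlike Car5a, were named after their values were seen, as were all genes below that were not among the lowest adjusted p of their list at day 2 against normal control.

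Of 11 genes for glutamine and glutamate handling, 9 were tested. At day 2 against normal control 1 was higher and 1 lower. Glud1, glutamate dehydrogenase, which frees ammonia from glutamate, was at 188, 155, 272 and 225 FPKM in day 2 replicates 1 to 4, against 460 and 490 FPKM in normal control. Every day 2 library was under both controls (log2 change -1.2 ± 0.27, limma adjusted p = 0.02), and the call was lost without normal control replicate 1 (-1.25, adjusted p = 0.152) or 2 (-1.16, adjusted p = 0.177). The glutamine transporter Slc1a5 was higher at day 2 (2.64 to 5.13 FPKM against 1.43 and 1.43 FPKM; log2 change 1.03 ± 0.29, limma adjusted p = 0.0402) and at day 14 (12.3 and 6.75 FPKM; log2 change against normal control 2.06 ± 0.34, adjusted p = 0.0219). At day 14 Slc1a5 was also higher than at day 2 (log2 change 1.03 ± 0.29, adjusted p = 0.0483), a call that 3 of 12 alternatives kept.

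Glul, glutamine synthetase, which captures in pericentral hepatocytes the ammonia that the cycle leaves, was at 33.0, 28.9, 273 and 157 FPKM in day 2 replicates 1 to 4, against 403 and 350 FPKM in normal control. The day 2 libraries spread over 9.44-fold, all below the controls, and the log2 change of -2.21 ± 0.87 did not pass (limma adjusted p = 0.103). Without day 2 replicate 3 it did, at adjusted p = 0.025. At day 14 Glul was at 215 and 318 FPKM.

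Breakdown of amino acids to ammonia or glutamate was covered by 18 listed genes, 16 of them tested. At day 2 against normal control 4 fell (Amdhd1, Amt, Gldc and Hal) and 1 rose (Sdsl), with a median log2 change of -0.80. Hal, histidine ammonia lyase, was at 72.2, 78.1, 44.0 and 31.9 FPKM in day 2 replicates 1 to 4, against 148 and 129 FPKM in normal control (log2 change -1.36 ± 0.38, limma adjusted p = 0.0368). Amdhd1, which acts further along the same histidine pathway, was at 30.5 to 69.1 FPKM at day 2, against 113 and 109 FPKM in normal control (log2 change -1.40 ± 0.38, adjusted p = 0.0342). Amt, of the glycine cleavage system, was at 4.48 to 15.3 FPKM at day 2, against 29.2 and 30.6 FPKM (log2 change -1.5 ± 0.40, adjusted p = 0.0335). Sdsl, a serine dehydratase relative, was at 94.4, 138, 37.1 and 30.2 FPKM in day 2 replicates 1 to 4, against 11.1 and 9.31 FPKM in normal control, above both in every library (log2 change 2.50 ± 0.58, adjusted p = 0.0213; 1.91 and adjusted p = 0.0531 with the length and GC trend removed).

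At day 14 against day 2, 4 genes of this list were higher, Aspg, Hal, Prodh2 and Uroc1, and 1 was lower, Got2. Prodh2, the relative of Prodh that oxidises hydroxyproline, was at 452 and 302 FPKM at day 14, against 24.6, 14.9, 75.7 and 84.0 FPKM at day 2 and beside 132 and 119 FPKM in normal control. As in Prodh, day 14 lay above the controls and day 2 below them, with a log2 change of 3.20 ± 0.66 between day 14 and day 2 (limma adjusted p = 0.0188). Got2, the mitochondrial partner of Got1, was at 69.1 and 119 FPKM at day 14, against 171, 235, 293 and 190 FPKM at day 2 (log2 change -1.25 ± 0.31, adjusted p = 0.0333) and against 247 and 259 FPKM in normal control (log2 change -1.47 ± 0.36, adjusted p = 0.0439). Got2 and Gldc were the 2 genes of the list called at day 14 against normal control, both lower.

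Other users of arginine, ornithine and their relatives numbered 15, of which 12 were tested. At day 2 against normal control Nos3, Odc1 and Sat1 rose and Azin1 fell. Odc1, ornithine decarboxylase, the first enzyme of polyamine synthesis, was at 96.4, 81.0, 59.7 and 54.3 FPKM in day 2 replicates 1 to 4, against 25.2 and 24.3 FPKM in normal control. All 4 were above the controls (log2 change 1.48 ± 0.28, limma adjusted p = 0.0109). At day 14 Odc1 was at 10.8 and 13.7 FPKM, below every library of day 2 (log2 change -2.45 ± 0.28, limma adjusted p = 0.0038). Sat1, which breaks polyamines down, and Nos3, the endothelial nitric oxide synthase, which uses arginine, had log2 changes of 1.31 ± 0.39 and 1.53 ± 0.44 at day 2 against normal control (adjusted p = 0.0485 and 0.0406), calls that 4 and 3 of 12 alternatives kept. Azin1, an inhibitor of antizyme, fell by 1.39 on the log2 scale (adjusted p = 0.0386). The second arginase Arg2 and the inducible synthase Nos2, both known from macrophages, did not reach the minimum for the test. Arg2 was listed at 0 in both day 14 libraries and at 0.0903 to 1.04 FPKM at day 2, and Nos2 was at most 0.134 FPKM in any library.

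All 12 listed regulators of urea cycle genes were tested. At day 2 against normal control 4 fell, among them Nr3c1, Sirt3 and Cebpa, and none rose. Cebpa, a transcription factor that drives liver metabolic genes, was at 31.5, 44.6, 50.03 and 21.3 FPKM in day 2 replicates 1 to 4, against 127 and 103 FPKM in normal control (log2 change -1.68 ± 0.34, limma adjusted p = 0.0144). At day 14 it was at 166 and 168 FPKM, above all other libraries (log2 change against day 2 2.22 ± 0.34, adjusted p = 0.00802). Nr3c1, the glucocorticoid receptor, was at 3.33 to 5.73 FPKM at day 2, against 18.2 and 15.3 FPKM in normal control (log2 change -1.60 ± 0.23, adjusted p = 0.00543). Sirt3, a mitochondrial deacetylase, was at 21.8 to 31.9 FPKM at day 2, against 60.1 and 55.6 FPKM (log2 change -1.12 ± 0.23, adjusted p = 0.0141).

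Hnf4a, a central hepatocyte factor, was not called in any comparison, at 136 and 120.4 FPKM at day 14, 72.1 to 155 FPKM at day 2 and 121 and 146 FPKM in normal control. Klf15 and Foxa2 were called higher at day 14 than at day 2 together with Cebpa. Cebpb, which is induced by inflammation and glucagon, was the 1 regulator called at day 14 against normal control, at 133 and 95.7 FPKM against 19.2 and 26.8 FPKM (log2 change 2.26 ± 0.44, limma adjusted p = 0.0296; 1.62 and adjusted p = 0.0559 with the length and GC trend removed).

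Other genes of the portal and the central zone were counted beside the cycle, which is itself periportal. Of 10 other periportal genes 3 fell at day 2 against normal control and none rose, and of 15 pericentral genes 2 fell and none rose, with median log2 changes of -0.97 and -0.71. Pigr, the immunoglobulin transporter, and Etnppl, a lyase that breaks down phosphoethanolamine, fell by 2.98 and 2.70 on the log2 scale (limma adjusted p = 0.00217 and 0.00174), and these calls were kept in all 12 alternatives. The cytochrome Cyp2f2 was at 23.1, 20.2, 290.4 and 54.9 FPKM in day 2 replicates 1 to 4, against 937 and 975 FPKM in normal control (log2 change -4.15 ± 0.93, adjusted p = 0.0198). Of the pericentral cytochromes, Cyp2e1 was at 157 to 860 FPKM at day 2, against 2835 and 2756 FPKM (log2 change -2.82 ± 0.72, adjusted p = 0.0294), and Cyp27a1 at 53.0 to 164 FPKM, against 310.01 and 294 FPKM (log2 change -1.85 ± 0.42, adjusted p = 0.0202). Over all genes tested 11.5% were called lower in this comparison, a share near that of the pericentral list. Whether the zones differed was not tested. At day 14 against day 2, Cyp2f2, Etnppl and Pigr of the periportal list and Axin2, Cyp27a1 and Tbx3 of the pericentral list were higher. At day 14 against normal control Ctsc alone of the periportal list was called, and it was lower (log2 change -1.37 ± 0.28, limma adjusted p = 0.0328).

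Of the 20 genes that the naming rule took from these 7 lists for a call at day 2 against normal control, 18 lost it without normal control replicate 1 and 18 without normal control replicate 2, at adjusted p of up to 0.278. With the length and GC trend removed 6 of the 20 lost it (Slc1a5, Sdsl, Hal, Azin1, Nos3 and Sat1), and with no filter on low values 11. All 17 named genes called at day 14 against day 2 lost the call without day 14 replicate 1, at adjusted p of up to 0.364 for Slc1a5, and 9 of them with no filter on low values. The 5 with values above that were called at day 14 against normal control (Slc1a5, Slc25a15, Got2, Cebpb and Ctsc) all lost it without day 14 replicate 1 and without either normal control library, at adjusted p of up to 0.259. With the length and GC trend removed Slc25a15, Cebpb and Ctsc lost it (adjusted p = 0.063, 0.0559 and 0.0726).

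**Figure D4:**
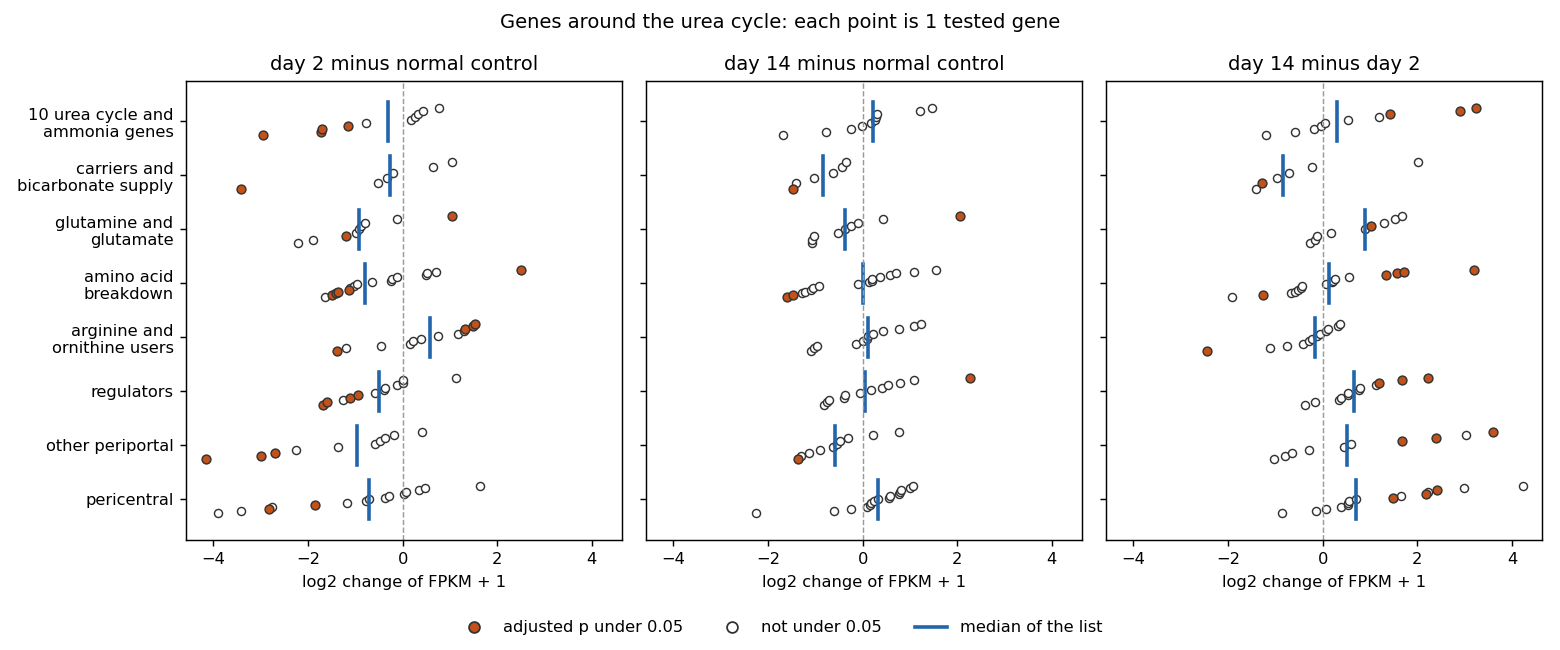
Log2 change of FPKM + 1 (horizontal axis) of every tested gene in the 10 genes and the 7 lists around them, with a panel per comparison, filled points for a limma adjusted p under 0.05 and a bar at the median of each list. At day 2 minus normal control the median is at -0.80 for amino acid breakdown and at 0.57 for the users of arginine and ornithine, and the filled points lie on both sides of 0 in 3 of the lists.

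Genes whose levels ran most like the mean of the 5 cycle enzymes were sought among 7213 tested genes with a mean of at least 5 FPKM. The measure was Pearson's r over the 8 libraries with the mean log2(FPKM + 1) of Cps1, Otc, Ass1, Asl and Arg1, which was 8.91 and 9.40 at day 14, 7.97, 8.16, 8.45 and 8.04 at day 2 and 9.05 and 9.20 in normal control. The 5 genes with the highest r were Cpq (0.986), Hiat1 (0.983), Hebp1 (0.982), Pex2 (0.979) and Itpr1 (0.973). The 8 points share the 3 groups, so that any gene lower at day 2 than in both other groups scores high. The 5 enzymes did not share a profile. Between pairs of them r ran from -0.69 (Cps1 and Arg1) to 0.77 (Asl and Arg1), and that of Otc and Asl was 0.08. A high r with the mean therefore does not describe each enzyme. Cpq, a carboxypeptidase, was at 37.0 and 52.6 FPKM at day 14, 19.0, 18.3, 22.5 and 19.2 FPKM at day 2 and 43.9 and 47.4 FPKM in normal control. Hebp1, a heme-binding protein, was at 177 and 342 FPKM at day 14, 48.9 to 72.5 FPKM at day 2 and 218 and 203 FPKM in normal control.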

How the data were processed

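Liver RNA-seq of 8 libraries was analysed from the table the authors deposited, whose columns are headed FPKM per the file headers and were used as deposited. Tools named in the submitters' processing notes are Cufflinks 2.2.1, HISAT2 2.10, DESeq2 and HTSeq, and builds mm9 and GRCm38; their roles are unstated, and the tool behind the table is not given in the sources used here. The table lists 47719 genes, 25829 of them at 0 throughout. Names were found for 47219 identifiers, and 27 symbols that had become dates were repaired by identifier. Coordinates are from GENCODE M21 on GRCm38.

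The members and lists, and the rule for naming genes, were chosen with earlier results of these data known. That rule took all 10 members and, of each of 7 lists, up to 4 called genes with the lowest adjusted p at day 2 against normal control. It also took the 5 genes most like the mean of the cycle enzymes. One gene the rule took is not reported here.

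A gene was tested if 2 or more libraries had 1 FPKM or more of it. On log2(FPKM + 1), limma 3.58.1 (R 4.3.3) fitted 1 mean per group to all 8 libraries, with a trended prior variance and 5 residual and 3.23 prior degrees of freedom. The method was tested on simulated data. The call threshold was 0.05 for the Benjamini-Hochberg adjusted p, in each of 3 comparisons. There were 12 alternatives: 0.1 as pseudocount, no filter, median-ratio scaling, a fit on values freed of their dependence on transcript length and GC content (splines of 4 degrees of freedom, 12307 genes) and leaving out each library. Read counts are unknown. FPKM values under 0.1 gave relative depth scales of 0.633 to 1.135 between libraries, but no more than 30.7% of low genes lay near 1 ratio in any library other than the one all were set against, so reads were not recovered and no interval from counts was computed. Plots used Python 3.11.15 with matplotlib 3.10.9.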

Additional observations from a re-analysis of the deposited data

Results flagged for a closer look

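Otc, Gls2 and Prodh had different changes against the same normal controls at day 14 and at day 2. The difference of the 2 changes, which equals day 14 minus day 2 in the fit because the controls cancel, was 3.24 log2 units for Otc, 1.42 for Gls2 and 2.91 for Prodh (limma adjusted p = 0.00868, 0.0116 and 0.00746). In each gene 2 of 2 day 14 libraries were above 4 of 4 day 2 libraries. On log2(FPKM + 1), no gene of the 10 had a value in the 4 day 2 libraries far enough from the rest to pass the gap test. The widest gap on that scale was that of Gpt in replicate 2, at 0.796 of the range, below the critical value of Dixon's test for 4 samples. On FPKM itself this Gpt gap takes up more of the range, and the gap test was not run there. The outcome therefore holds for the log2 scale only.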

How the results depend on the processing

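The count of the 10 genes called was 4 at day 2 against normal control, and 2 with no filter on low values. It was 0 at day 14 against normal control and 3 at day 14 against day 2. Leaving out 1 library gave 0 to 4, 0 to 1 and 0 to 4 in these comparisons. The 0 arose without either normal control library in the first, and without day 14 replicate 1 in the third. Over all genes, 2620, 1208 and 1990 were called. With the length and GC trend removed the first 2 counts were 1737 and 498, and with no filter the second was 691. Leaving out 1 library gave 92 to 2971, 0 to 2097 and 17 to 2472. The cause was not tested, though each such fit has fewer libraries.

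Of 120 values of the 10 genes under the alternatives in each comparison, 117, 115 and 113 kept their direction. None that turned belonged to a gene called in the same comparison. With the trend removed, Asl was -0.09 and Gpt -0.22 at day 2 against normal control, Nags -0.15 at day 14 against normal control and Arg1 0.03 at day 14 against day 2. The others turned when 1 library was left out. At day 2 against normal control Asl then ran between -0.19 and 0.56. At day 14 against normal control Ass1 ran between -0.74 and 0.24, Got1 between -1.74 and 0.21 and Gpt between -0.53 and 0.52. At day 14 against day 2 Cps1 ran between -0.51 and 0.62, Arg1 between -0.15 and 0.13 and Gpt between -0.71 and 0.34. Genes of the lists that turned were Foxa2 (-0.59 to 0.36, day 2 against normal control), Cyp2e1 (-1.59 to 0.39) and Hnf4a (-0.19 to 0.08, both day 14 against normal control), and Amt (-0.11 to 0.41), Amdhd1 (-0.18 to 0.57) and Sat1 (-0.30 to 0.25, all day 14 against day 2), none of them called there.

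No paired analysis was possible because any 2 groups share fewer than 2 numbers in the titles of their libraries. The number 2 alone recurs, in the titles of day 14 replicate 1, day 2 replicate 1 and normal control replicate 2, and nothing in the labels says that it marks anything shared. Groups of 2 libraries limit every comparison, and absolute read depth is unknown. Differences that missed the threshold are not shown to be absent.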

Other observations

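Some markers of other cell types were called, in comparisons where 4.58% of all genes tested were called lower at day 14 and 11.5% lower and 9.72% higher at day 2, each against normal control, and 7.03% lower at day 14 than at day 2. Of 8 Kupffer cell markers, 4 were called lower at day 14 than in normal control (C1qa, C1qb, C1qc and Vsig4) and 5 lower at day 14 than at day 2, and 1, Marco, was higher at day 2 than in normal control. Their sums were 71.3 and 82.5 FPKM at day 14, 170 to 264 FPKM at day 2 and 178 and 151 FPKM in normal control. Of 8 sinusoidal endothelium markers, 2 were lower at day 14 (Kdr and Lyve1) and 2 at day 2 (Fcgr2b and Kdr) than in normal control. Stellate cell markers summed to 39.5 and 64.2 FPKM at day 14, 65.4 to 182 FPKM at day 2 and 86.3 and 83.5 FPKM in normal control, and cholangiocyte markers to 5.77 and 5.03, 4.10 to 21.7 and 3.46 and 4.28 FPKM; 1 of 8 stellate markers, Dcn, was called (lower at day 14 than at day 2) and 0 of 3 tested cholangiocyte markers in any comparison by limma (0 at an unadjusted p under 0.05). Erythroid markers summed to 2447 and 1130.0 FPKM at day 14, 332 to 1509 FPKM at day 2 and 394 and 320.0 FPKM in normal control. Of 3 tested, Hba-a1 was called higher at day 14 than in normal control, where 5.21% of all genes tested were called higher. Alas2 was called lower at day 2 than in normal control and higher at day 14 than at day 2, where 9.09% were. Of 8 tested monocyte markers, Adgre1, Csf1r and Lyz2 were called lower at day 14 than in normal control. Ly6c2 was called lower at day 14 than at day 2. The part of these lists in the levels of the urea cycle genes was not tested.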
